A study of Mus musculus with 4 samples.

Results

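The 40 genes described here are cell cycle and DNA replication genes, chosen by symbol and all found among the 32285 genes listed in the files. They comprise 15 replication genes of S phase (Mcm2 to Mcm7, Pcna, Rrm1, Rrm2, Tyms, Gins2, Cdc6, Cdt1, Uhrf1 and Ung), 20 mitotic genes of G2 and M phase (Mki67, Top2a, Cdk1, Ccna2, Ccnb1, Ccnb2, Birc5, Ube2c, Aurka, Aurkb, Bub1, Plk1, Cdc20, Cenpa, Cenpe, Cenpf, Kif11, Nusap1, Tpx2 and Hmmr), 3 cyclins of G1 and its passage to S phase (Ccnd1, Ccne1 and Ccne2) and 2 broadly expressed genes, Stmn1 and H2afz. They were read in 4 mouse liver sections by Visium, in which the mRNA of frozen tissue is captured on a slide of barcoded spots and counted by unique molecular identifiers (UMIs). STAM16w and STAM20w come from STAM, a metabolic model of liver cancer with features of steatohepatitis and type I diabetes. DEN22w and DEN30w come from DEN+CCl4, a fibrotic model driven by DNA damage from diethylnitrosamine and by carbon tetrachloride. Each group is 1 section, with w read as weeks; strain and sex are not given in the sources used here, and no group is untreated liver.

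Whether each section is a different animal is not labelled, and p-values measure only the spread between these 4 sections. The models share no labelled time, so model and time cannot be told apart. Kept spots numbered 2080 to 2968 per section, and their median depth ran from 7302.5 UMIs in DEN22w to 12761 in STAM20w. Hepatocyte markers took 48145 to 120415 UMIs per 1000000 in the 22 regions of the sections. A spot holds parts of several cells, so fewer dividing cells and less RNA per cell cannot be told apart. Levels are UMIs per 1000000 UMIs (CPM) and are not scaled by gene length, so they are compared between sections and not between genes. All intervals of levels, ratios and shares are exact, at 95%, and cover counting error only.

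A cell first licenses its replication origins by loading the MCM helicase with the help of Cdc6 and Cdt1, and then copies its DNA with the sliding clamp Pcna and with nucleotides made by ribonucleotide reductase (Rrm1, Rrm2) and thymidylate synthase (Tyms). Entry into mitosis follows the activation of Cdk1 by cyclins A and B, and exit from it follows protein destruction by the anaphase-promoting complex with Cdc20 and Ube2c. Adult hepatocytes are mostly quiescent and re-enter the cycle after injury, and many are polyploid. E2F factors act on the promoters of many replication genes, while the cell cycle homology region (CHR), often with CCAAT boxes nearby, marks promoters bound by the DREAM and MuvB complexes, which switch mitotic genes off in quiescence and on in G2.

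The promoters of 6 members are shown as examples of the motif classes that differ between the replication and mitotic genes. Whether these motifs have a part in the levels below was not tested. Each is the 160 bases before the annotated start in the RefSeq table of GRCm38.p6, 5′ to 3′, with capitals for E2F (TTTCCCGC, TTTGGCGC, TTTCGCGC), CHR (TTTGAA or its variant TTCGAA) and CCAAT matches on either strand. Overlapping matches run together. Mcm6 (chr1:128359706-128359865, minus strand) and Mcm5 (chr8:75109349-75109508, plus strand) encode helicase subunits.
Mcm6: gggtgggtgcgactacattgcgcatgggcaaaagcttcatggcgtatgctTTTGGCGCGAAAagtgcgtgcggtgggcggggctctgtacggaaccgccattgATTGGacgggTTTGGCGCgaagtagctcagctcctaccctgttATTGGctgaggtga
Mcm5: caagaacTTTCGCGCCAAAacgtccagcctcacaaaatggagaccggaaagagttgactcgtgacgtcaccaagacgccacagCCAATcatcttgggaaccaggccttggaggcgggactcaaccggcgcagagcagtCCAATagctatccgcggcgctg
Cdk1 (chr10:69352913-69353072, minus strand) is the mitotic kinase, Ube2c (chr2:164769769-164769928, plus strand) and Cdc20 (chr4:118437344-118437503, minus strand) act with the anaphase-promoting complex, and Top2a (chr11:99024190-99024349, minus strand) untangles sister chromosomes.
Cdk1: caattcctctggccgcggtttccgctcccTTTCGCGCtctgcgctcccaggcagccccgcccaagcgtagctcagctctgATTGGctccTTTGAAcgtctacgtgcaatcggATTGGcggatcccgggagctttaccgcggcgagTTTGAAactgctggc
Ube2c: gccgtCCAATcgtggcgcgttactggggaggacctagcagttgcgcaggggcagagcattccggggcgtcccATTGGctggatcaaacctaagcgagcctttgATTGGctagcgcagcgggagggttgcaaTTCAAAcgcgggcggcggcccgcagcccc
Cdc20: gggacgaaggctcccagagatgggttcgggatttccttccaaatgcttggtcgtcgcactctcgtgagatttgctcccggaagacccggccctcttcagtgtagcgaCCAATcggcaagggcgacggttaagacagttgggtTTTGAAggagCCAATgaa
Top2a: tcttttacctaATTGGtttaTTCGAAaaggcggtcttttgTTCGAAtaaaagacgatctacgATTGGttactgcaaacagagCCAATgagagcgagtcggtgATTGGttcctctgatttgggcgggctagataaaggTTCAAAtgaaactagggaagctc
A CHR match lay 71 and 15 bases before the start of Cdk1, 29 before that of Ube2c and 18 before that of Cdc20. E2F matches lay 110, 106 and 47 bases before the start of Mcm6.

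The table held promoters of 32 of the 40 members, as 34 windows of 300 bases. A CHR match was present in 13 of 17 mitotic windows (76.5%), in 2 of 15 replication windows (13.3%) and in 19.2% of all 32851 windows. An E2F match was present in 7 replication windows (46.7%), in 1 mitotic window (5.88%), that of Cdk1, and in 1.85% of all windows. CCAAT was present in 88.2% of the mitotic, 73.3% of the replication and 37.4% of all windows. A match describes letters and is not a binding site, and a window with no match says nothing about the factor.

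The balance of replication to mitotic UMIs of these members differed between sections and was higher in both STAM sections than in both DEN+CCl4 sections. Wider lists of other replication and other mitotic genes did not share this order, and their values are given at the end. The 15 replication members summed to 154 CPM (149 to 160) in STAM16w and to 134 (130 to 137), 102 (97.4 to 106) and 121 (117 to 124) in STAM20w, DEN22w and DEN30w. The 20 mitotic members summed to 59.3 CPM (56.1 to 62.7), 94.1 (91.1 to 97.1), 117 (112 to 121) and 151 (147 to 156) in the same order. With all UMIs, both STAM sections were thus above both DEN+CCl4 sections for replication and below them for mitosis. At 4000 UMIs per spot the replication intervals of STAM20w (131 to 146 CPM) and DEN30w (125 to 140 CPM) overlapped. The share of spots with a replication UMI was 40.5% and 40.98% there. Without Pcna and Cenpa, the most abundant member of each group, the replication sums of STAM20w and DEN30w were 99.0 and 96.8 CPM. There were 2.60 replication UMIs per mitotic UMI (2.44 to 2.78) in STAM16w and 1.42 (1.36 to 1.48), 0.869 (0.821 to 0.919) and 0.796 (0.764 to 0.829) in STAM20w, DEN22w and DEN30w. The order held with every spot thinned to 4000 UMIs, at 2.76, 1.54, 0.844 and 0.813.

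**Figure D1:**
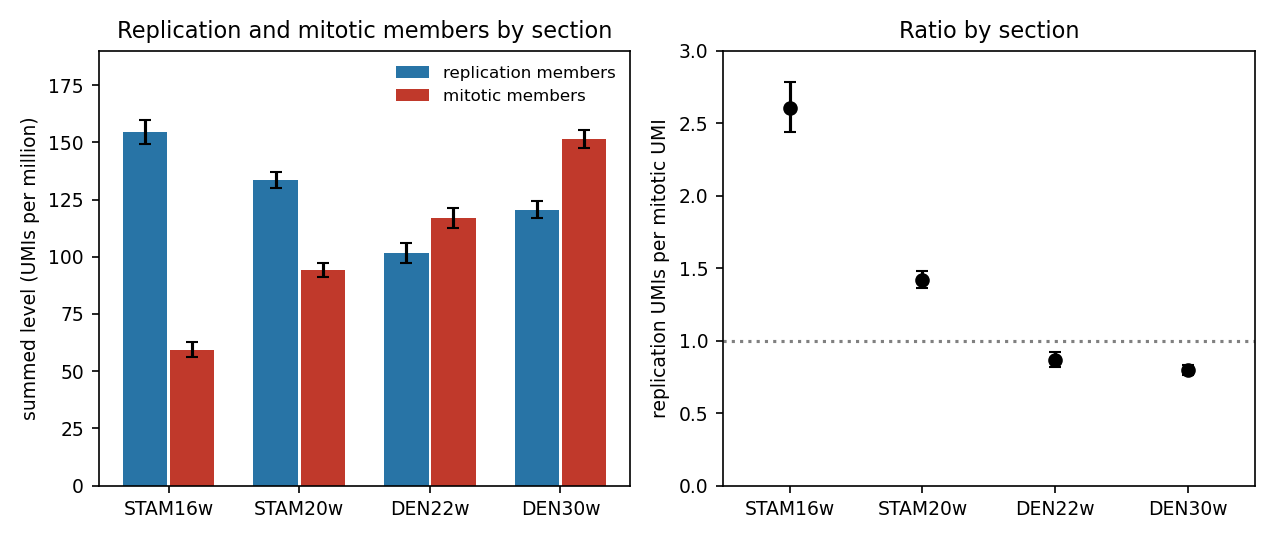
Left, summed level in CPM of the 15 replication and 20 mitotic members in each section; right, replication UMIs per mitotic UMI, with a dotted line at 1. Bars and points are 1 section each and error bars are exact 95% counting intervals; the ratio is 2.60 and 1.42 in the STAM sections and 0.869 and 0.796 in the DEN+CCl4 sections.

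Among single mitotic members, 16 of 20 were lower in both STAM sections than in both DEN+CCl4 sections, against 39.2% of the 14417 genes tested; among replication members, 5 of 15 were higher in both STAM sections, against 18.5%. Mki67, the proliferation marker of the chromosome surface, stood at 3.86 CPM in STAM16w and at 5.05, 11.2 and 13.4 in STAM20w, DEN22w and DEN30w. Cdc20, the activator of the anaphase-promoting complex, stood at 3.24, 5.82, 12.7 and 14.6 CPM. For both genes the models did not overlap. Ube2c, its ubiquitin-conjugating partner, did overlap, with 5.17, 17.7, 9.70 and 15.5 CPM and its highest value in STAM20w. Cdk1 (8.45, 10.4, 10.4 and 14.6 CPM), Ccna2, the S and G2 cyclin, and Kif11, the spindle motor, overlapped too. Cenpa, the centromeric histone, had the narrowest spread of the 3 most abundant mitotic members, at 11.4, 14.0, 17.2 and 15.9 CPM.

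The lower members followed the same split. Cyclins B1 and B2, which activate Cdk1, stood at 1.93, 4.35, 5.21 and 9.63 CPM (Ccnb1) and at 2.37, 5.10, 7.92 and 8.83 CPM (Ccnb2). Birc5, the survivin subunit of the chromosomal passenger complex, stood at 4.73, 6.62, 10.7 and 11.5 CPM, and its kinase Aurkb at 1.69 to 3.27. Top2a stood at 3.57, 4.02, 4.67 and 8.74 CPM, Hmmr, which binds spindle microtubules, at 1.26, 1.67, 2.67 and 4.42, and the spindle factor Nusap1 at 1.35, 1.35, 2.09 and 3.41. The centrosomal kinase Aurka (2.27 to 4.50 CPM), the checkpoint kinase Bub1 (0.338 to 1.09), Plk1 (1.35 to 4.59), Tpx2 (1.55 to 4.67), Cenpe (1.26 to 2.67) and Cenpf (0.628 to 2.92) were all lower in both STAM sections.

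Of the replication members, Mcm2 was most unlike between models, at 11.4 CPM in STAM16w and at 11.8, 3.47 and 5.19 in STAM20w, DEN22w and DEN30w. Mcm3 (7.68, 5.15, 3.83 and 3.81 CPM), Mcm4 (5.12, 4.85, 1.74 and 3.01), Pcna (29.6, 34.6, 19.9 and 23.7) and the licensing factor Cdt1 (6.96, 5.45, 5.03 and 4.56) were the other members above in both STAM sections. The helicase subunits were therefore not alike: Mcm7 stood at 23.3, 15.6, 15.98 and 18.3 CPM and Mcm6 at 13.2, 8.55, 9.17 and 10.6, with STAM20w lowest for both. Mcm5 (5.99, 3.27, 2.80 and 3.41 CPM) and Rrm1 (15.2, 9.25, 9.83 and 11.3) were highest in STAM16w as well, with the other sections close together. Rrm2 (5.88 to 8.07 CPM), Tyms (8.90 to 10.4), the helicase cofactor Gins2 (2.14 to 3.02), Cdc6 (0.445 to 1.003) and Uhrf1, which keeps DNA methylation at the fork (2.49 to 3.43), overlapped between models. Ung, which removes uracil from DNA, was highest in DEN30w, at 10.8, 12.5, 8.14 and 14.3 CPM. Cyclin D1 (Ccnd1), which drives G1, stood at 28.6 CPM in STAM16w and at 72.7, 61.1 and 61.2 in STAM20w, DEN22w and DEN30w. Ccne1 and Ccne2, the E cyclins of S phase entry, stayed between 0.650 and 2.85 CPM in every section. Stmn1 stood at 20.3, 26.1, 23.1 and 30.5 CPM and H2afz at 103, 146, 104 and 97.9 CPM, higher in STAM20w than in STAM16w in both cases.

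**Figure D2:**
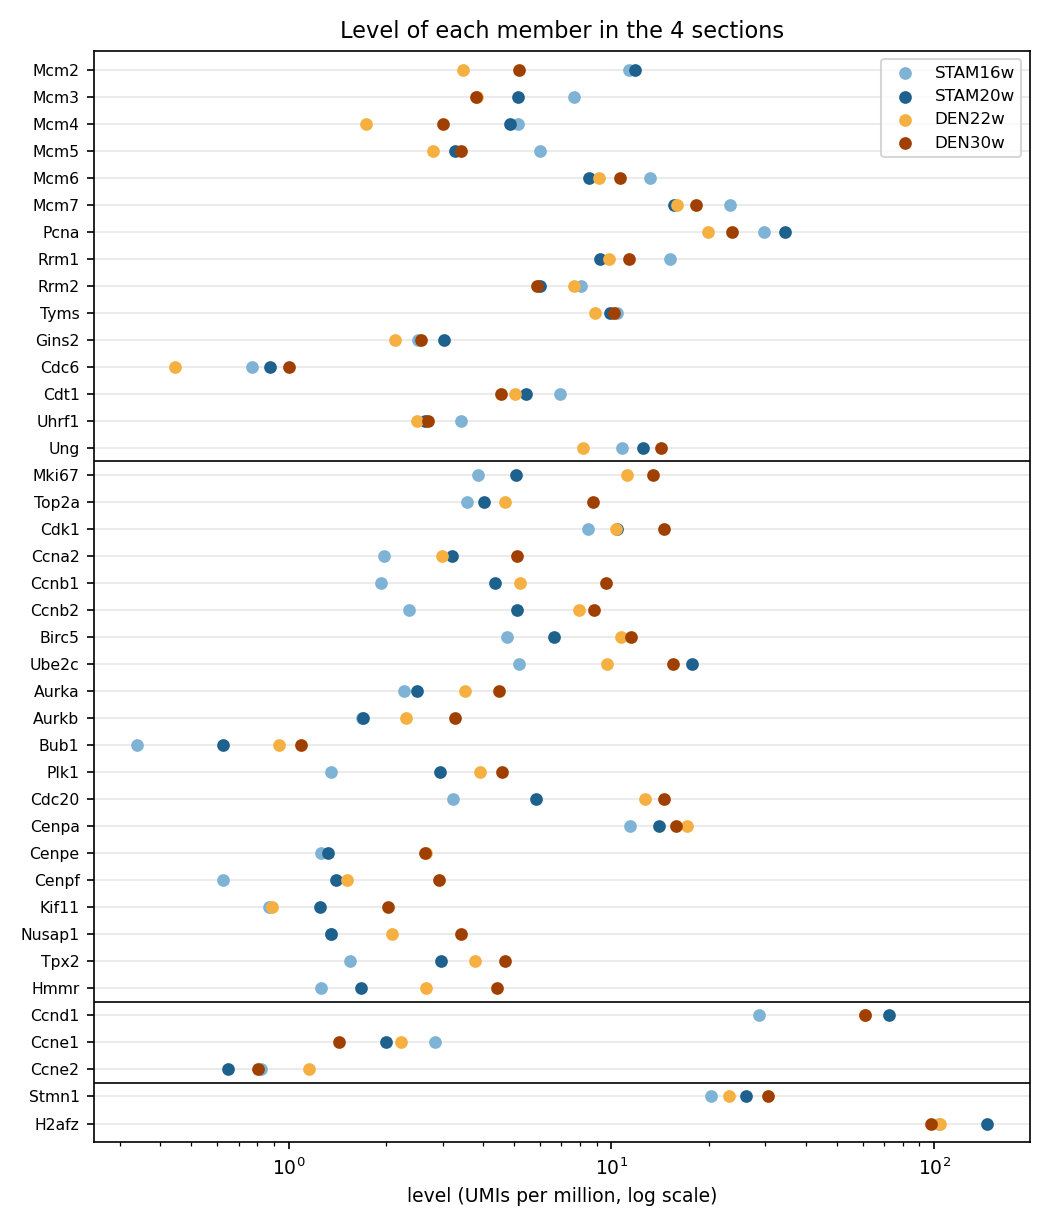
Level of each of the 40 members in CPM on a log axis, 1 point per section; black lines divide replication, mitotic, G1 cyclin and broadly expressed members. The STAM points lie left of the DEN+CCl4 points for 16 of the 20 mitotic members and right of them for 5 of the 15 replication members.

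No member passed the test between models: edgeR's quasi-likelihood test with Benjamini-Hochberg adjustment called 63 of 14417 genes (0.437%) and 0 of 40 members, of which 10 had an unadjusted p under 0.05, near the 22.9% of all genes that did. The closest were Mcm2 (log2 STAM over DEN+CCl4 1.60, SE 0.25, adjusted p = 0.0609), Mki67 (-1.29, SE 0.22, adjusted p = 0.0730) and Cdc20 (-1.42, SE 0.29, adjusted p = 0.0865), named after their values were seen. DESeq2 called 5 members, Mcm2, Mcm4 and Pcna higher and Mki67 and Cdc20 lower in STAM, and 10.5% of all genes, so this count is near the share of all genes. All 15 replication members had a positive log2 value (median 0.40) and 19 of 20 mitotic members a negative one (median -0.80), while the median of all genes was 0.00. Of the 46 other mitotic genes tested, 38 were negative (median -0.43) and 0 were called; the 34 other replication genes had a median of 0.02, with 19 positive.

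Between times within a model the sections differed without replicates, so these are folds with no test. STAM20w stood at least 2-fold above STAM16w for 6 members, against 11.2% of 14329 genes, and at least 2-fold below it for 0, against 3.89%. The 6 were Ube2c (3.43-fold), Ccnd1 (2.54-fold), Ccnb1 (2.25-fold), Cenpf, a kinetochore protein (2.23-fold), the mitotic kinase Plk1 (2.18-fold) and Ccnb2 (2.15-fold). Outside the Apcdd1 patch of STAM20w described below, only Ube2c (10.7 against 5.17 CPM in STAM16w) and Ccnd1 (66.6 against 28.6) stayed past 2-fold. There Ccnb1 stood at 2.85 CPM against 1.93, Cenpf at 0.960 against 0.628, Plk1 at 2.25 against 1.35 and Ccnb2 at 4.14 against 2.37. DEN30w stood at least 2-fold above DEN22w for 2 members, Kif11 (2.29-fold) and the origin-licensing gene Cdc6 (2.25-fold), against 6.92% of 14261 genes, and at least 2-fold below it for 0, against 1.49%. The share of members past 2-fold was thus near that of all genes in both models.

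The replication and mitotic members parted within STAM. Without the Apcdd1 patch the mitotic sum of STAM20w was 69.3 CPM in place of 94.1, beside 59.3 in STAM16w. The replication sum was then 128.5 CPM, beside 154 in STAM16w. The median log2 ratio of STAM20w over STAM16w was -0.35 over replication members, with 5 of 15 positive, and 0.50 over mitotic members, with 19 of 20 positive; the median of all genes was 0.17. In DEN+CCl4 the medians were 0.21 and 0.42, with 12 of 15 and 18 of 20 positive, beside 0.12 for all genes. In the test over both models with model as a block, edgeR called 111 of 14417 genes (0.77%) and 0 of 40 members, of which 3 had an unadjusted p under 0.05, as did 12.6% of all genes, and DESeq2 called 0. Ube2c had the smallest p of the members (log2 1.07, SE 0.29, adjusted p = 0.164). Of the wider lists, Tk1, the thymidine kinase of DNA synthesis, fell (log2 -1.33, SE 0.20, adjusted p = 0.0270), and Myc (1.36, SE 0.25, adjusted p = 0.0491) and the stress-induced inhibitor Gadd45g (1.97, SE 0.29, adjusted p = 0.0247) rose.

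The mitotic members of STAM20w were unevenly spread over the section. Regions were clusters of spots made without the cell cycle genes. The regions described here had the highest summed level of the replication and mitotic members in their section, and in STAM20w also the next highest, so the counts of members past 2-fold are a description and nothing is read from the share of genes beside them. The region led by Apcdd1, Duox1, Teddm1b, Cpe and Myot, 270 spots of which 84.2% of contacts were with each other, held 218 CPM of mitotic members (207 to 230) against 69.3 in the rest, a 3.15-fold difference (2.95 to 3.36). Its replication members stood at 159 CPM against 128.5, or 1.24-fold (1.16 to 1.32). All 20 mitotic members were past 2-fold there and 1 of 15 replication members was, against 6.06% of genes. Ube2c stood at 52.6 CPM against 10.7, Tpx2, a spindle assembly factor, at 9.45 against 1.68, and Stmn1, which destabilises microtubules, at 60.4 against 19.2. Its median depth was 24512 UMIs per spot, the highest of the section.

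A second patch, led by H19, Gm44427, Afp, Sult2a1 and Cyp3a44, spanned 260 spots and differed from the first. Its mitotic members stood at 169 CPM and its replication members at 198, a ratio of 1.17 (1.05 to 1.298) against 0.729 (0.673 to 0.790) in the Apcdd1 patch. Past 2-fold were 11 of 20 mitotic and 2 of 15 replication members, against 7.99% of genes. Hmmr and Tpx2, which were 6.55-fold and 5.62-fold higher in the Apcdd1 patch, were 1.10-fold and 1.26-fold here. The list of tumour and oncofetal hepatocyte markers, which earlier results of these sections had named in part, summed to 503 CPM in the Apcdd1 patch, 697 in the H19 patch and 27.9 to 239 in the section's other regions. The 2 largest regions of STAM20w held 49.1 and 50.6 CPM of mitotic members, beside 38.9 to 66.0 in the 4 larger STAM16w regions.

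Smaller contrasts stood in the other sections. In STAM16w a region of 53 spots led by Nupr1, Ptgds and Gstm3 held 135 CPM of mitotic members (108 to 167) against 57.0 in the rest. Past 2-fold were 12 of 17 mitotic members with enough UMIs over the whole section, against 8.52% of genes. Each of the 12 rested on only 2 to 8 UMIs in the region. Among them the counting interval lay above 0 on the log2 scale only for Ccnb2, Ube2c, Aurkb, Plk1, Tpx2 and Hmmr. Tumour markers summed to 195 CPM there and to 22.5 to 35.4 in the other STAM16w regions, and their part in the result was not tested. In DEN22w the region led by Cpe, Acap1 and Gstm3, 50.1% of the spots, held 155 CPM against 88.6, with 6 of 20 mitotic members past 2-fold against 3.45% of genes; Cenpe, the kinetochore motor, was 4.81-fold higher there. In DEN30w the region led by Ighg3, Iglc2 and Iglc3 held 228 CPM against 137, with 4 of 20 mitotic members past 2-fold (Mki67, Top2a, Bub1 and Cenpe) against 11.0% of genes. That region also held the section's highest sums of stellate (1324 CPM), macrophage (2242 CPM) and lymphoid (84.5 CPM) markers, and of tumour (94.5 CPM), duct (318 CPM), endothelial (316 CPM) and neutrophil (54.3 CPM) markers, whose part in the result was not tested.

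**Figure D3:**
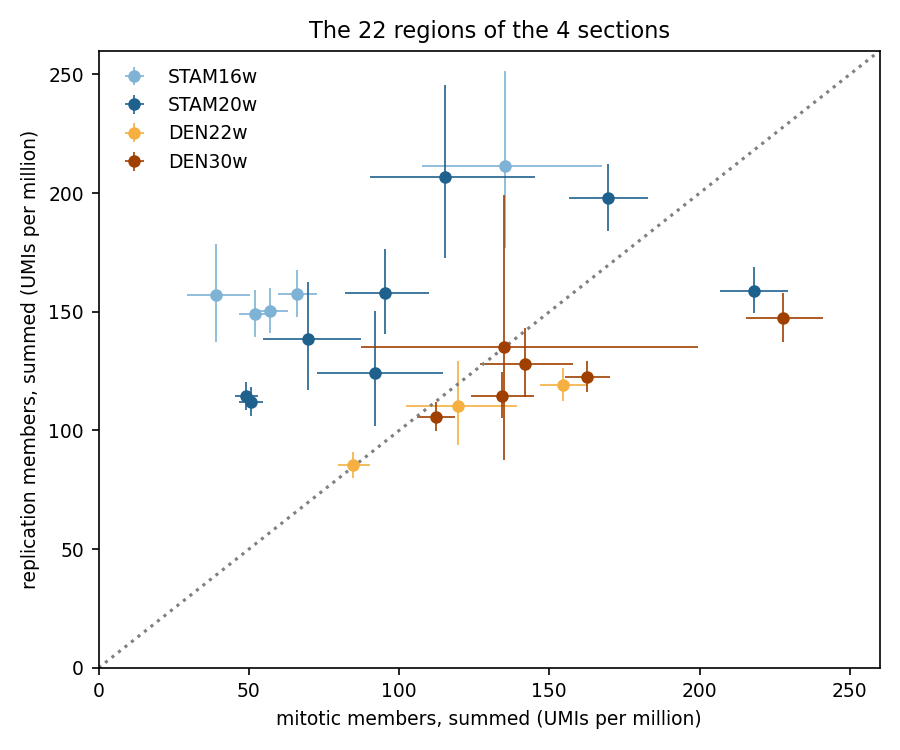
Summed replication level against summed mitotic level, both in CPM, for the 22 regions of the 4 sections, with exact 95% counting intervals; the dotted line marks a ratio of 1. Among STAM regions the Apcdd1-led patch of STAM20w (218 mitotic, 159 replication) is the one below the line.

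Spots were next divided in each section into 3 equal parts by a score of pericentral minus periportal hepatocyte markers. The parts are named by this score alone, and their place in the lobule was not tested. The pericentral part held 97.8% of the Apcdd1 patch of STAM20w and 75.4% of the Ighg3-led region of DEN30w. The periportal part held 65.4% of the H19 patch. Mitotic members summed to 57.3 CPM in the pericentral and 56.5 in the periportal part of STAM16w, 134 and 74.9 in STAM20w, 158 and 76.2 in DEN22w, and 199 and 114 in DEN30w. Replication members summed to 156 and 154, 141 and 127, 129 and 81.2, and 143 and 107 CPM. STAM16w thus showed no zonal difference beyond counting error in either sum, and the other sections were higher pericentrally. At 4000 UMIs per spot the share of spots with a mitotic UMI was 16.2% pericentrally and 18.4% periportally in STAM16w. The shares were 32.3% and 25.0% in STAM20w, 43.7% and 25.8% in DEN22w, and 53.4% and 37.1% in the DEN30w section. For a replication UMI they were 45.3% and 42.6%, 40.8% and 42.0%, 39.4% and 27.7%, and 46.0% and 36.3%, so STAM20w was not higher pericentrally by this measure.

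Over the 4 sections 9 of 39 members tested rose in the pericentral part and 0 fell, against 8.4% of 13427 genes called in either direction by edgeR's quasi-likelihood test with section as a block. They were Stmn1 (log2 0.80, SE 0.10, adjusted p = 0.000287), the mitotic members Ube2c (0.91, SE 0.17, adjusted p = 0.00498), Cdk1 (0.70), Mki67 (0.71), Birc5 (0.58), Hmmr (1.18) and Ccnb2 (0.61), and the replication members Cdt1 (0.77, SE 0.21, adjusted p = 0.0355) and Mcm3 (0.67, SE 0.18, adjusted p = 0.0389). Stmn1 was higher in 4 of 4 sections, at 23.2 against 16.6, 39.3 against 19.1, 33.8 against 15.6 and 41.8 against 20.6 CPM. Ube2c was level in STAM16w, at 4.40 against 4.53 CPM, and higher in the other three, at 30.2 against 11.5, 14.4 against 5.47 and 20.5 against 11.1. Pcna (0.02, SE 0.08), Mcm7 (0.11, SE 0.09), Ung (-0.24, SE 0.14) and Cenpa (0.26, SE 0.12) did not pass.

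In STAM20w this difference rested on spots of the Apcdd1 patch, 97.8% of which lay in the pericentral part. Without the patch the mitotic log2 ratio of that section went from 0.84 to -0.20 (-0.36 to -0.04) and the replication ratio from 0.15 to -0.01. In a fit without the patch, tried after seeing this, 5 of 38 members were called, Mcm3, Stmn1, Mki67, Cdt1 and Cdk1, against 8.63% of genes. Without the region with the highest summed level of each section, 2 of 37 were called, Mcm3 and Stmn1, near the 6.02% of genes called there. DESeq2 called 4 of 36, against 5.52% of genes. Leaving out DEN22w left 3 of 39 (Stmn1, Ube2c and Cdk1), against 4.44%, and leaving out DEN30w left 4 of 37 (the same and Hmmr), against 4.52%. The calls rose to 11 of 40 without STAM16w, against 6.63% of genes, and to 12 of 37 without STAM20w, against 10%. Without the section block 0 members and 0 genes passed, and 2 of 37 members had an unadjusted p under 0.05. In DEN22w and DEN30w the mitotic log2 ratios were 1.05 and 0.80 with all spots, beside a median of 0.17 and 0.18 over all genes. Without the region with the highest summed level they were 0.90 and 0.58. In DEN22w this left only 119 of 915 pericentral spots against 861 of 916 periportal ones. In DEN30w it left 603 pericentral and 971 periportal spots. Sums of stellate markers (log2 1.02 and 1.21), macrophage markers (0.91 and 0.89) and lymphoid markers (0.995 and 1.59) were also higher in the pericentral parts of DEN22w and DEN30w, and their part in the result was not tested. Sums of tumour markers were higher too, at log2 0.52, 1.69 and 1.38 in STAM20w, DEN22w and DEN30w. Sums of bile duct markers were lower pericentrally in STAM16w, STAM20w and DEN22w (log2 -1.43, -0.65 and -0.45). In DEN30w they were higher there (0.63, 0.54 to 0.72), and their part in the result was not tested. The pericentral parts of DEN22w and DEN30w were shallower, at a median of 5915 against 9568.5 and 8476 against 10424 UMIs per spot. Of the 10 macrophage markers 7 rose in the fit, and of the 10 stellate markers 3 rose and 1 fell.

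**Figure D4:**
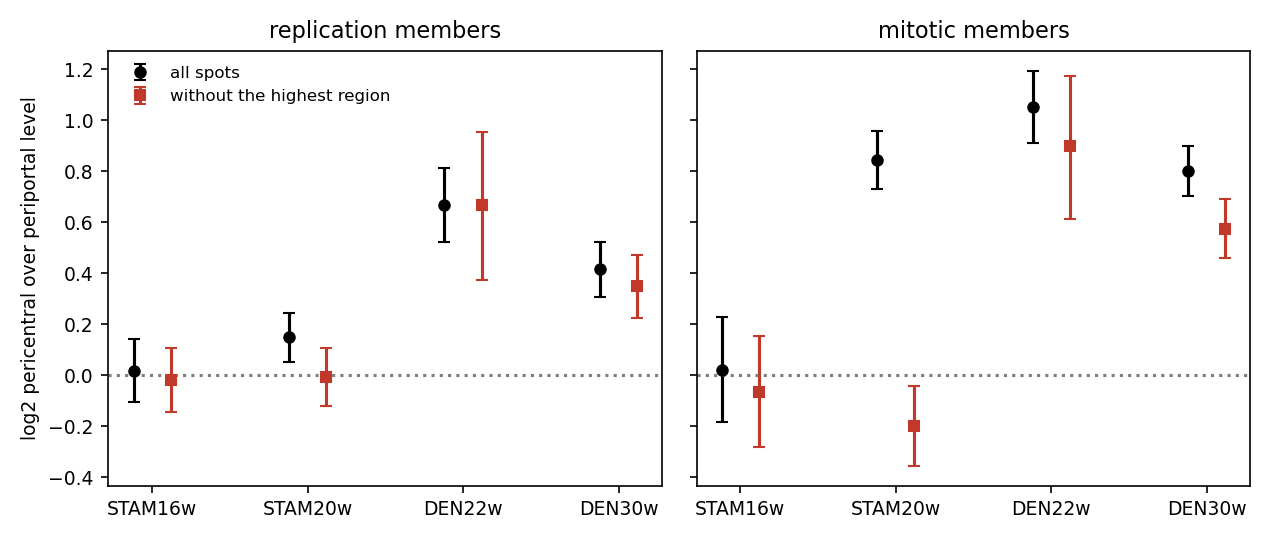
Log2 ratio of the summed level in the pericentral over the periportal part, for replication members (left) and mitotic members (right), in each section with all spots (black) and without the region with the highest summed member level (red); bars are exact 95% counting intervals. The mitotic ratio of STAM20w goes from 0.84 to -0.20, while those of DEN22w and DEN30w stay above 0. Without that region DEN22w keeps only 119 of 915 pericentral spots.

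Of the wider lists, 4 of 42 other mitotic genes rose pericentrally, near the 8.4% of all genes called, with the smallest p for Spc24, Ckap2 and Racgap1. Among 31 other replication genes Rpa1 rose and Tk1 fell (log2 -0.43, SE 0.10, adjusted p = 0.0216 by edgeR), not above that share. The regulator Myc rose (0.79, SE 0.16, adjusted p = 0.00938), as did the inhibitor Gadd45b, while the antiproliferative genes Btg1 and Btg2 fell. The test of whether the zone difference differed between models called 0.506% of genes and 0 members with edgeR, of which 5 had an unadjusted p under 0.05, as did 14.5% of all genes. Ccnd1 came closest (log2 difference -0.73, SE 0.16, adjusted p = 0.0703). It stood at 26.7 against 30.4 CPM in STAM16w and at 78.4 against 76.3, 86.6 against 41.3 and 77.7 against 49.0 in STAM20w, DEN22w and DEN30w.

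With each spot thinned to 4000 UMIs, a replication UMI was found in 44.8%, 40.5%, 33.2% and 40.98% of spots and a mitotic UMI in 18.6%, 26.3%, 35.6% and 45.0% (STAM16w, STAM20w, DEN22w and DEN30w). Spots with both were 1.05 (0.900 to 1.21), 1.13 (1.01 to 1.26), 0.986 (0.874 to 1.11) and 1.04 (0.955 to 1.13) times the product of these shares. The mitotic list split into 2 gave 1.16 (0.727 to 1.75), 1.46 (1.15 to 1.82), 1.29 (1.07 to 1.53) and 1.13 (0.980 to 1.3001), above 1 beyond counting error in STAM20w and DEN22w. The sections above 1 changed with depth. At 2000 UMIs they were STAM16w (2.57, 1.44 to 4.23) and STAM20w (2.09, 1.45 to 2.91), and DEN22w was not (1.36, 0.992 to 1.82). At 6000 UMIs they were again STAM20w and DEN22w. The replication list split into 2 gave 1.08 (0.910 to 1.26), 1.14 (0.952 to 1.34), 1.17 (0.942 to 1.44) and 0.989 (0.822 to 1.18), so replication members did not meet each other beyond counting error in any section. In STAM20w, spots touching a mitotic spot held a mitotic UMI in 37.2% of cases, against 22.3% beside other spots, and a replication UMI in 43.8% against 39.2%.

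Spots with at least 1 mitotic UMI were then compared with spots of the same section that had 0, paired on depth, to ask what else they carried. The mitotic members define these spots and were not tested. Of the 18 other members tested Stmn1 rose and 0 fell, against 0.34% of 13250 genes. Stmn1 stood at 23.1 against 18.03 CPM in STAM16w and at 29.6 against 17.3, 27.6 against 16.4 and 35.1 against 24.1 in STAM20w, DEN22w and DEN30w, higher in 4 of 4 sections (log2 0.60, SE 0.07, adjusted p = 0.000142 by edgeR's quasi-likelihood test). Paired within the same region the value was 0.32 and still passed; DESeq2 called 0 genes. Matched spots with a mitotic UMI remained deeper in 3 sections, for example 14573 against 11595 UMIs in STAM20w, and in a narrower depth window Stmn1 stood at 0.53.

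No replication member passed, with values from -0.16 for Ung to 0.40 for Mcm4 (SE 0.18). Pcna (0.05, SE 0.07) and Mcm7 (0.14, SE 0.08) were near 0, and Mcm2 (0.32, SE 0.12, adjusted p = 0.361 by edgeR) was higher in STAM16w (12.9 against 8.73 CPM) and STAM20w (13.5 against 10.2) and level in DEN22w (3.40 against 3.498) and DEN30w (6.04 against 5.82). Ccne1 (0.78, SE 0.25), Ccnd1 (0.14, SE 0.05) and the histone variant H2afz (0.09, SE 0.05) did not pass. Cdc6 and Ccne2 were too low to be tested. The test of a difference between models called 0.0151% of genes and 0 members, none with an unadjusted p under 0.05.

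**Figure D5:**
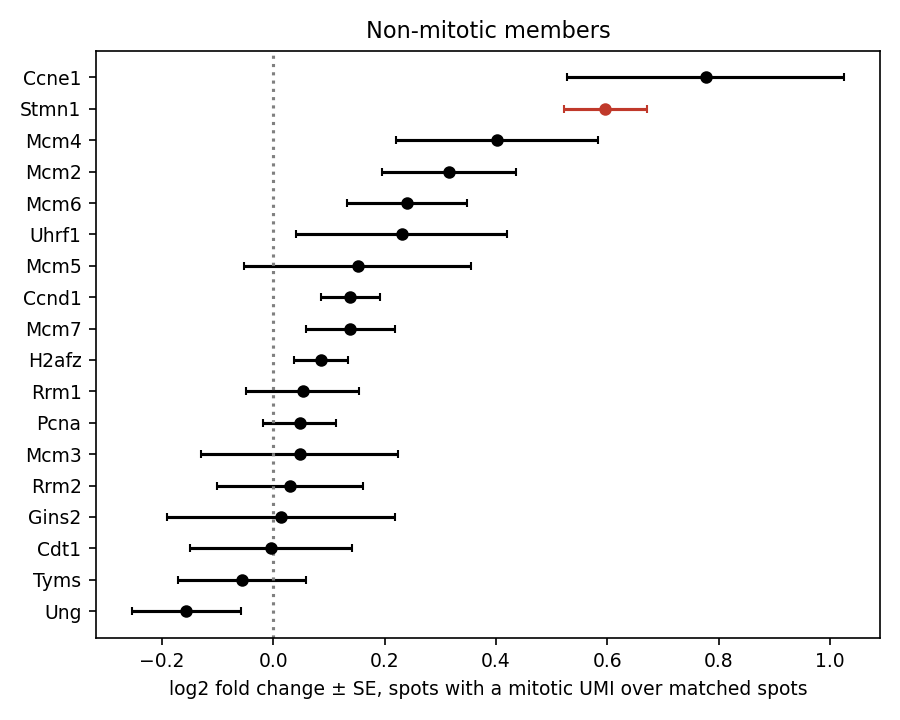
Log2 fold change with its SE, from edgeR, of the 18 non-mitotic members tested in spots with a mitotic UMI over depth-matched spots, each fit over 4 sections. Stmn1 (red, 0.60) passed the test; replication members lie between -0.16 and 0.40.

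Of the 42 other mitotic genes, 4 rose in these spots: Smc4 and Ncapg, subunits of condensin, Ckap2, a spindle protein, and Kif20a, a motor of cell division. None of the 31 other replication genes passed. The 5 genes outside the members with the smallest p were Plat, Slc7a11, Gpx2, Sdcbp2 and H19, and all rose; no gene fell. Their log2 ratios in STAM20w were 1.48, 1.98, 2.16, 1.40 and 1.84, while Plat and Gpx2 were below 0 in DEN22w and Sdcbp2 was below 0 in STAM16w and DEN30w. Of the 9 tumour and oncofetal markers tested 7 rose, among them Slc7a11, Gpx2 and H19 named above. Earlier results of these sections had named part of this list. Its sum and the mitotic sum were both high in the Apcdd1 and H19 patches, so the count of markers is a description. The marker sum was carried by STAM20w, at 263 against 101 CPM (log2 1.38), with log2 values of 0.36 in STAM16w, 0.12 in DEN22w and 0.53 in DEN30w.

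Last, the top 10% of spots for each marker list was compared with depth-matched spots at or below the median of that list. In stellate-rich spots 2 of 29 members tested rose, against 12.4% of 11306 genes by edgeR: Ccnd1 (log2 0.33, SE 0.10, adjusted p = 0.0255) and Hmmr (1.14, SE 0.38, adjusted p = 0.0433), a smaller share than among all genes. Ccnd1 stood at 35.5 against 31.3 CPM in STAM16w and at 84.0 against 60.4, 71.6 against 65.9 and 86.8 against 50.5 in STAM20w, DEN22w and DEN30w; Hmmr rested on 2 to 20 UMIs a side. Neither gene was called without DEN30w, where 0 members passed, or without STAM20w, where Stmn1 alone passed, and without STAM16w or DEN22w Ccnd1 alone passed; DESeq2 called 0 members.

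No member passed in the other marker-rich spots by edgeR, which called 4.43% of genes in macrophage-rich, 1.65% in lymphoid-rich, 1.83% in duct-rich and 0.018% in tumour-rich spots. At an unadjusted p under 0.05 there was 1 of 33 members in macrophage-rich spots, against 16.3% of all genes at that threshold. There were 4 of 32 in lymphoid-rich spots against 10.9%, 6 of 31 in duct-rich spots against 11.4%, and 18 of 32 in tumour-rich spots against 10.9%. Earlier results of these sections had named part of the tumour list, and its sum was high in the Apcdd1 and H19 patches. The count in tumour-rich spots is therefore a description. DESeq2 called 0 members in macrophage-, duct- and tumour-rich spots and gave no member an adjusted p in lymphoid-rich spots. The mitotic sum went opposite ways in macrophage-rich spots, with a log2 ratio of -1.12 (-1.35 to -0.90) in STAM20w against 0.55 (0.30 to 0.80) in DEN22w and 0.57 (0.39 to 0.74) in DEN30w, and 0.15 (-0.21 to 0.50) in STAM16w; the difference between sections was not tested. In duct-rich spots it was 1.05 (0.81 to 1.2997) in STAM20w and within counting error of 0 elsewhere. In lymphoid-rich spots it was 0.73 (0.55 to 0.91) in DEN30w, 0.38 (0.02 to 0.73) in STAM16w and within counting error of 0 in the others. Macrophage markers of STAM20w summed to 1175 and 1215 CPM in the Apcdd1 and H19 patches. They summed to 1863 and 1633 in the 2 largest regions and to 830 to 1626 elsewhere. Duct markers summed to 194 and 592 CPM in these patches and to 61.6 to 1767 in the other regions. The part of the patches in these ratios was not tested. In tumour-rich spots the log2 ratio of the mitotic sum was 0.65 in STAM16w and 2.48, 0.25 (-0.01 to 0.50) and 0.57 in STAM20w, DEN22w and DEN30w, so it was highest in STAM20w and not beyond counting error in DEN22w. Tpx2 (log2 1.53, SE 0.35, adjusted p = 0.310 by edgeR) had the smallest p. Without STAM20w, Stmn1 was called in macrophage-rich spots, and without DEN22w, Ccnd1 was called in duct-rich spots.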

How the data were processed

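Counts are whole UMIs per gene and spot that the authors deposited without normalization. Per the submitters' processing notes, Space Ranger 1.3.1 and STAR were used with mm10; their settings are not given in the sources used here. Spots with at least 500 UMIs and 250 genes were kept. The members and lists were chosen with earlier results of these data known.

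Sections are the replicates, so tests ran on the UMI sum of each spot class in a section, with edgeR 4.0.16 (R 4.3.3; quasi-likelihood test, TMM, filterByExpr, Benjamini-Hochberg at 0.05 over all genes tested). Genes that define a class were left out of its adjustment. Regions came from Leiden clustering (scanpy 1.11.5, resolution 0.5) of each section. Because the median of sparse marker scores equalled their minimum, reference spots lay at or below it, not below it as planned. Named were members that passed, the 3 most abundant others of each group, and the called genes of wider lists with the smallest p; genes beyond these are said to be so or given for description. The tests between models, times and zones were run on simulated data with the same spread for all genes, not set from these sections. The tests of matched spots were not, and no conclusion is drawn from the simulation. Alternatives were DESeq2 1.42.0, other scaling, no filter, other depths, thresholds and matching, and leaving out sections or regions.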

Additional observations from a re-analysis of the deposited data

Results flagged for a closer look

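For 2 members the later section lay on opposite sides of the earlier one in the 2 models, with counting intervals that did not include 0; the difference between models was not tested. Mcm7, a helicase subunit, had a log2 ratio of -0.58 in STAM and 0.19 in DEN+CCl4. H2afz, a histone variant, had 0.50 in STAM and -0.09 in DEN+CCl4. The median of all genes was 0.17 and 0.12 on the same scale.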

How the results depend on the processing

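None of the members called between zones, in spots with a mitotic UMI or in stellate-rich spots reversed its direction under the alternatives run for it. Members called between models were 5 with DESeq2 (10.5% of genes) and 4 with no filter on low counts (9.14% of genes), both near the share of all genes, and 0 without any 1 section. Between times 1 of 40 was called with no filter, beside 4.39% of genes. Leaving out a section of that fit leaves no residual degrees of freedom and was not run, and DESeq2 gave no member an adjusted p in lymphoid-rich spots. Members called between zones were 4 of 36 with DESeq2 (5.52% of genes) and 14 of 40 with no filter (8.79%). Without the section block 0 members and 0 genes were called. With Cyp2e1 and Cyp2f2 alone 5 of 40 were called (6.1% of genes), and after thinning 4 of 34 (7.13%). Without the regions with the highest level 5 of 38 (STAM20w alone, 8.63%) and 2 of 37 (each section, 6.02%) were called. Without 1 section 3 to 12 were called, beside 4.44% to 10% of genes. In spots with a mitotic UMI 0 were called with DESeq2 or without the block. In stellate-rich spots 0 were called with DESeq2 or without the block, and 1 with no filter (8.6% of genes). Without 1 section 0 to 1 were called there, beside 5.92% to 13.1% of genes. In macrophage-rich spots 1 was called with no filter (4.68% of genes) and 0 to 1 without 1 section (2.51% to 7.16%). In duct-rich spots 1 was called with DESeq2 size factors (1.89% of genes), with no filter (1.88%) and in the top 5% of spots (2.32%). Without 1 section 0 to 1 were called there, beside 0.501% to 2.23% of genes. In tumour-rich spots 4 of 40 were called with no filter, beside 1.21% of genes. Past 1.5-fold between times were 13 members in STAM, 10 up and 3 down beside 22.9% and 9.27% of genes, and 12 in DEN+CCl4, 11 up and 1 down beside 15.7% and 4.32%. At a minimum of 50 UMIs 1 was past 2-fold in DEN+CCl4, beside 5.19% of genes up.

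The order of the replication to mitotic ratio over sections held in each alternative, all of which used members only. The wider lists did not share it. Their pericentral sums in STAM16w, STAM20w, DEN22w and DEN30w were 362, 232, 389 and 376 CPM for other replication genes. For other mitotic genes they were 293, 384, 341 and 396 CPM. The periportal sums were 341, 228, 362 and 342 CPM, and 277, 309, 232 and 288 CPM. The ratio of the members was 2.92 in STAM16w and 1.59 in STAM20w without Ube2c, Cenpa and Pcna, chosen after seeing the data. Without the most abundant member of each group it was 1.24 in STAM20w, 0.818 in DEN22w and 0.715 in DEN30w. Without the region with the highest level it was 1.86 in STAM20w, 0.996 in DEN22w and 0.841 in DEN30w, with replication sums of 128.5, 88.2 and 115.6 CPM and mitotic sums of 69.3, 88.6 and 137.4 CPM. After thinning it was 1.54 in STAM20w; the replication sums were 138.6 in STAM20w and 132.0 in DEN30w, and the mitotic sums 55.1, 90.2, 124.1 and 162.3 in STAM16w, STAM20w, DEN22w and DEN30w. At 2000 UMIs a spot, 29.9%, 24.8%, 18.2% and 21.3% held a replication UMI and 9.96%, 14.7%, 20.8% and 26.1% a mitotic UMI. At 6000 these were 59.6%, 53.6%, 45.7% and 51.3%, and 27.9%, 36.0%, 44.9% and 56.1%. Groups could not be paired with each other, since each is 1 section; the comparisons of spot classes paired them within a section through the section block. Members under 1 CPM rest on few UMIs and have wide counting intervals.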
